A study of Mus musculus with 16 samples.

Results

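At 294 places in the genome of medullary thymic epithelial cells (mTEC), dimethylation of histone H3 at lysine 4 (H3K4me2) was weak in 1 sorted population, mTEC-I, and present at similar levels in the other 3. They are 0.998% of the 29470 merged peaks outside the mitochondrial genome. A peak was taken when its mean signal in mTEC-II, mTEC-III and mTEC-IV was at least 50 tags per 10000000 tags of the library, the lowest of these 3 means was at least 2 times the mTEC-I mean, and the highest was below 2 times the lowest. The measured signal of all 8 libraries therefore chose the peaks, and their low level in mTEC-I is a description of the choice, given without a test. The peaks lie nearest to 272 genes, among them Hox genes, other patterning regulators such as Tfap2b, Pax6 and Sim1, the gut regulators Cdx1 and Foxa1, and the fetal RNA-binding protein genes Lin28b, Igf2bp1 and Igf2bp3.

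H3K4me2 marks promoters and enhancers that are active or open to activation, and enhancers usually differ more between cell types than promoters do. Medullary thymic epithelial cells display proteins of many other tissues to developing T cells, which removes self-reactive T cells or turns them into regulatory cells. The populations of the medulla include cells with junctional and basal features, cells that express the autoimmune regulator Aire, cells on a path to cornified epithelium and tuft cells.

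All 4 populations were sorted from thymi of C57BL/6 mice as cells without CD45 and with Epcam, a gate that every group shares. The mTEC-I gate added low MHC class II and the integrin Itgb4, the mTEC-II gate high MHC class II, and the mTEC-III gate Ly6D, while the mTEC-IV gate took L1cam-positive cells with low MHC class II and without Itgb4. Each population has 2 H3K4me2 libraries, and 8 whole-cell extract samples are not analysed here. The labels call the cells enriched for each population and give neither age nor sex nor whether replicates are separate mice, so any p-value measures only the spread between these libraries, which may be technical.

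Among the nearest genes of the 294 peaks are 13 miRNA genes, nearest to 16 of the peaks, and 12 of them matched the RefSeq table of miRNAs. The mature strands of 5 that are described below with their values are shown, because the miRNA itself is the product of such a gene. Capitals mark the seed, bases 2 to 8, and coordinates are on GRCm38.p6, another build than the mm9 coordinates of the peaks.
miR-10b-5p: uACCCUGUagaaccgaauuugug
miR-9-5p: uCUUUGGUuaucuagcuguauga
miR-194-5p: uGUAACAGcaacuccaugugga
miR-146a-5p: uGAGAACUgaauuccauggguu
miR-148a-3p: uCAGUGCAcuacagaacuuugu
These strands lie at chr2:74726074-74726096, plus strand; chr13:83738821-83738843, plus strand; chr19:6264658-6264679, plus strand; chr11:43374435-43374456, minus strand; and chr6:51269829-51269850, minus strand. No seed among the matched mature strands was shared with another.

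Promoters of 5 genes with a peak centre within 1 kb of the start site are shown as examples of sequence under such peaks. Each run is the 250 bases before the start on the gene's strand, from RefSeq on GRCm38.p6, with CG dinucleotides in capitals. Sox2, Igf2bp3 and Hoxa3 hold 27, 21 and 18 CG dinucleotides, against a median of 6 over 27025 RefSeq promoters of the same length. Gpa33 holds 4 and Lin28b 6.
Sox2: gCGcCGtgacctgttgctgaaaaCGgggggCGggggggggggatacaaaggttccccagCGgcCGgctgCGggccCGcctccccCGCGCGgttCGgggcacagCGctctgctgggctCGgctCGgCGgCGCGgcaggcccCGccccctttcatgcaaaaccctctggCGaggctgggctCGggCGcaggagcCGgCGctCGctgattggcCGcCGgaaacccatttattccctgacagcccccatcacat
Igf2bp3: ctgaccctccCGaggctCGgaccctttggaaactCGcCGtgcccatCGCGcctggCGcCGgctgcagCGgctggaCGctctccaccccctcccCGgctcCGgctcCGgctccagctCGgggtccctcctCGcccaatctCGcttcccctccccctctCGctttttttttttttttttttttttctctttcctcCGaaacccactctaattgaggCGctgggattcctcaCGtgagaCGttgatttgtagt
Hoxa3: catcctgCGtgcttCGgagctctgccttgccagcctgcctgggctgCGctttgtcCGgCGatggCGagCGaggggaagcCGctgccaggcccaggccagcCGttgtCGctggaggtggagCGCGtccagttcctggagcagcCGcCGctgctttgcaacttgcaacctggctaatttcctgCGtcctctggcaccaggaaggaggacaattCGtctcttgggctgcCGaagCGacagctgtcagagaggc
Lin28b: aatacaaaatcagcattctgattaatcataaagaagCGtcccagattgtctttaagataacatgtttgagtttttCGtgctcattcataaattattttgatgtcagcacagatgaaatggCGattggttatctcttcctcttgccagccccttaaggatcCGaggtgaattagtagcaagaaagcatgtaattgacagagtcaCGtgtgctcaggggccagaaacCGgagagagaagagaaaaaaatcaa
Gpa33: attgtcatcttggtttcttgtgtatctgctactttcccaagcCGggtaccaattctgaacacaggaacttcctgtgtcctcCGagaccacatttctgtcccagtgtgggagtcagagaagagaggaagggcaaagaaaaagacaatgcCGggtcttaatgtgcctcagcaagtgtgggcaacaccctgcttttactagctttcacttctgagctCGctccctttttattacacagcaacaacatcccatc
They lie at chr3:34649745-34649994, plus strand (Sox2); chr6:49214955-49215204, minus strand (Igf2bp3); chr6:52213068-52213317, minus strand (Hoxa3); chr10:45470202-45470451, minus strand (Lin28b); and chr1:166129971-166130220, plus strand (Gpa33). The ratio of observed to expected CG dinucleotides was 0.833 at Sox2, 1.002 at Igf2bp3, 0.687 at Hoxa3, 0.631 at Lin28b and 0.286 at Gpa33, against a median of 0.379 over all promoters. On both strands, the letters CCAAT were found upstream of Sox2, Igf2bp3, Lin28b and Gpa33, and 37.5% of all promoters hold them. The E-box CACGTG, in 6.86% of all promoters, was found upstream of Igf2bp3 and Lin28b. Of the 69 genes with such a peak, 44 (63.8%) could be matched by gene ID, under the 80% needed, so a comparison of promoter composition between these genes and others is void.

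Before the results, 1 library needs to be named. mTEC-I replicate 2 held 1702103.5 tags, against 6461587 in mTEC-I replicate 1 and 7926038.5 to 15412132.5 in the 6 others, and 31.9% to 35.4% of tags lay in merged peaks in all 8. In mTEC-I replicate 2, 1 tag is worth 5.88 units of signal, a count of 0 allows a signal of up to 17.6 (3 tags, counting error only), 1474 of all peaks stood at 0, and the summed mitochondrial signal was 25225, against 275 to 3904 elsewhere. Without mTEC-I replicate 2 the same limits gave 282 peaks, of which 238 were among the 294, and without mTEC-I replicate 1 they gave 422, of which 267 were. At the genes of the sort, Epcam had a summed signal of 826 to 1141 in all libraries and Itgb4 had 330.4 and 285 in mTEC-I, against 216 to 242 elsewhere. H2-Aa, an MHC class II gene, had 457 and 432 in the mTEC-I libraries, 406 and 398 in the mTEC-II pair, 327 and 386 in the mTEC-III pair, and 241 and 242 in the mTEC-IV pair. H2-Ab1, a second one, had 586 and 543 in the mTEC-I libraries, 607 and 649 in the mTEC-II pair, 546 and 577 in the mTEC-III pair, and 397 and 367 in the mTEC-IV pair. mTEC-I was sorted as MHC class II low and mTEC-II as high, and mTEC-I stood above mTEC-II at H2-Aa and below it at H2-Ab1, so the 2 genes did not separate them in 1 direction. Ptprc, which encodes CD45, had 34.05 and 35.2 in mTEC-I, 30.03 to 48.9 in mTEC-II and mTEC-III, and 269 and 265 in mTEC-IV.

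At the 294 peaks the median signal was 27.1 in mTEC-I, 93.7 in mTEC-II, 89.6 in mTEC-III and 99.5 in mTEC-IV. mTEC-I stood at a median of 35.6% of the lowest of the other 3, with a range of 7.31% to 49.9%. The median difference between mTEC-I and the mean of the other 3 was -1.69 on the log2(value + 1) scale, against -0.0036 over all tested peaks. In 293 of the 294 both mTEC-I libraries lay below all 6 others, against 15.6% of all peaks, a separation that the limits largely fixed in advance. The exception was the peak nearest to Plxna1, at 52.6 and 5.88 in mTEC-I. All 294 were called lower in mTEC-I by limma at an adjusted p under 0.05, against 23.1% of all tested peaks, and since the contrast chose the peaks nothing is read from that count. In these pooled cells, less of the mark per cell and fewer cells that carry it cannot be told apart.

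Peaks of this level and evenness were rarely weak in mTEC-I. Of the 15163 peaks at 50 or more and within 2-fold in mTEC-II, mTEC-III and mTEC-IV (called even peaks here), 1.94% met the limit on mTEC-I (exact 95% Clopper-Pearson interval 1.73% to 2.17%). In the other 14869 even peaks, mTEC-I stood at a median of 117% of the lowest of the 3, with quartiles of 104% and 133%. The reverse pattern, mTEC-I at least 2 times the highest of the 3, was found at 25 even peaks. Even peaks stand at 50 or more in the 3 others by definition, so peaks strong in mTEC-I and weak elsewhere were left out. The count of 25 therefore does not measure how often mTEC-I was the stronger population. Over all tested peaks, limma called 4338 higher in mTEC-I and 6814 lower. The limits for peaks weak only in mTEC-I, turned to the other populations, gave 6 peaks weak only in mTEC-II, 92 weak only in mTEC-III and 159 weak only in mTEC-IV.

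**Figure D1:**
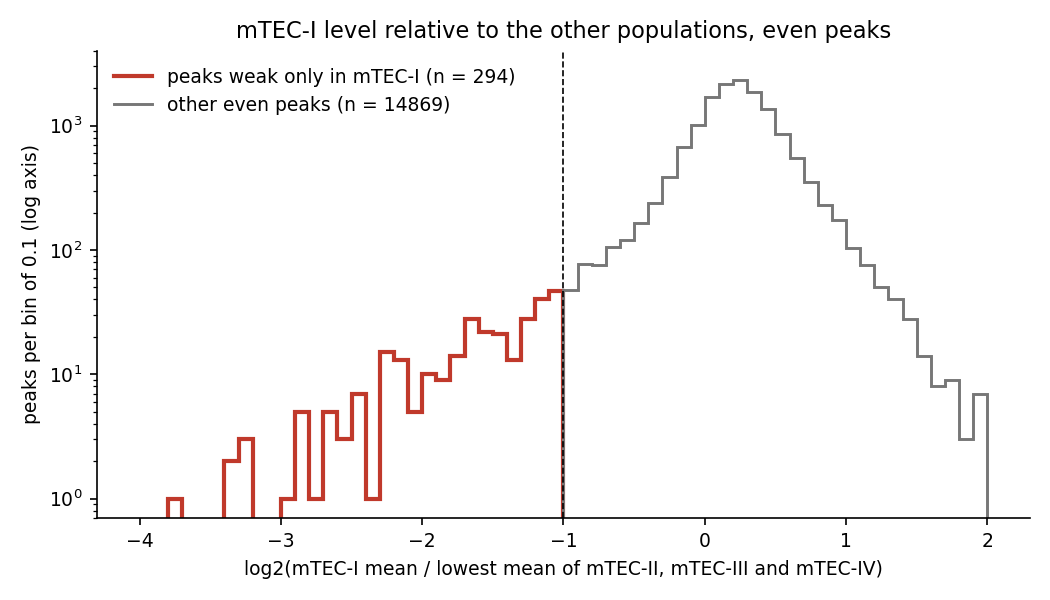
Number of even peaks (vertical axis, log scale, bins of 0.1) by the log2 ratio of the mTEC-I mean to the lowest mean of mTEC-II, mTEC-III and mTEC-IV (horizontal axis); the last bin holds all higher values and the dashed line marks a ratio of 0.5. The 294 peaks weak only in mTEC-I (red) lie left of the line and run on from the 14869 other even peaks (grey) without a gap.

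No gap in the values separates the 294 from their neighbours. Just inside the ratio limit stood Cxcl2 (2.004), Ikbke (2.007) and Igf2bp1 (2.0103), and just outside it Slc16a11 (1.9989), Cideb (1.996) and Fbxw11 (1.99). Between ratios of 2 and 2.2 there were 55 peaks, and 82 peaks that met the other limits had ratios from 1.8 to 2. At the level limit the lowest of the 3 means was 50.045 at Dkk1, 50.065 at the weaker Mir9-2 peak and 50.085 at Slc25a51, against 49.99 at Bckdhb, 49.895 at Swap70 and 49.76 at Pisd-ps2 outside. At the evenness limit the highest mean was 1.99 times the lowest at Rbm47, 1.98 times at Med13 and 1.98 times at Gpa33, against 2.02 times at Mir142, 2.04 times at Add3 and 2.04 times at Cbfa2t3 outside. The ratio of the lowest of the 3 to mTEC-I had a median of 2.81, was at least 3 at 123 peaks and at least 5 at 29.

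Although the limits hold mTEC-II, mTEC-III and mTEC-IV within 2-fold, their order was free. The highest of the 3 was mTEC-II at 76 of the 294 peaks (25.9%), mTEC-III at 73 (24.8%) and mTEC-IV at 145 (49.3%). Over all even peaks these shares were 16.3%, 47.5% and 36.1%. The mTEC-III share was thus the 1 of the 3 below that of even peaks as a whole, a difference that was not tested.

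Hox genes, which set position along the body axis, held the largest share among the 15 gene lists read. Of the 68 peaks nearest to Hox and ParaHox genes or to the miRNA and non-coding genes of their clusters, 15 (22.1%) were among the 294, nearest to 11 genes, against 0.998% of all peaks. The 53 others were mostly lower in mTEC-I too, with 37 called lower and 3 called higher by limma and a median difference of -1.21 on the log2 scale. The background is 23.1% of tested peaks lower and 14.7% higher. The summed signal over all 68 peaks, the 15 members included, was 3945 and 3604 in the mTEC-I libraries, against 5134 to 6815 in the 6 others. The limits chose the 15 for their low mTEC-I level, so nothing is read from the gap between these sums. The peaks of this list and the merged peaks of the Hox clusters described below overlap but are not the same set.

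The Hoxc cluster on chromosome 15 (mm9) held 7 of the 294 peaks within 59096 bases, the largest run of neighbours. Upstream of Hoxc10, at chr15:102792327-102799108 in intergenic sequence, the signal was 74.3 and 88.1 in the mTEC-I libraries, 293 and 292 in the mTEC-II pair, 353 and 364 in the mTEC-III pair, and 307 and 327 in the mTEC-IV pair. Inside an intron of Hoxc11, at chr15:102783944-102788116, it was 26.3 and 35.2 in the mTEC-I libraries, 232 and 217 in the mTEC-II pair, 211 and 231 in the mTEC-III pair, and 181 and 164 in the mTEC-IV pair. At the weaker Hoxc11 peak, chr15:102788527-102791315, it was 15.5 and 5.88 in the mTEC-I libraries, 123 and 114 in the mTEC-II pair, 64.98 and 62.4 in the mTEC-III pair, and 58.3 and 66.9 in the mTEC-IV pair. At all 3 the mTEC-I libraries lay far below the others without overlap, and mTEC-II, which is the highest at the weaker Hoxc11 peak, is not the highest at Hoxc10. At the start site of Hoxc9, chr15:102805838-102809157, the signal was 83.6 and 64.6 in the mTEC-I libraries, 143 and 161 in the mTEC-II pair, 145 and 173 in the mTEC-III pair, and 179.8 and 185 in the mTEC-IV pair. Its exonic neighbour chr15:102810762-102813664 had 44.1 and 41.1 in the mTEC-I libraries, 135 and 110.0 in the mTEC-II pair, 141 and 139 in the mTEC-III pair, and 142 and 158 in the mTEC-IV pair. The remaining peaks of the run lie nearest to Hoxc8 and to Hotair, a long non-coding RNA gene of the cluster. Of the 19 merged peaks of the cluster, 17 were called lower in mTEC-I and 0 higher by limma.

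The Hoxa cluster differed between its ends. Hoxa3, a gene needed for thymus formation, had 1 merged peak, at an annotated start that lies between the peaks labelled Hoxa6 and Hoxa7. This peak, chr6:52161566-52164725, had 35.6 and 47.00 in the mTEC-I libraries, 135 and 127 in the mTEC-II pair, 114 and 114 in the mTEC-III pair, and 214 and 194 in the mTEC-IV pair. Each peak takes the nearest start, so peaks elsewhere in the gene may carry other labels, and this peak is not a reading of the whole gene. Hoxa13, at the posterior end, had 7.74 and 41.1 in the mTEC-I libraries, 57.8 and 50.7 in the mTEC-II pair, 56.1 and 57.1 in the mTEC-III pair, and 55.5 and 69.9 in the mTEC-IV pair at chr6:52202897-52204750, where mTEC-I replicate 2 came close to the others. At the anterior end the signal ran the other way: the Hoxa2 peak had 1093 and 969 in the mTEC-I libraries, 514 and 583 in the mTEC-II pair, 232 and 305 in the mTEC-III pair, and 409.6 and 433 in the mTEC-IV pair. Both peaks of Hoxaas2, an antisense gene next to it, were also higher in mTEC-I, by 1.55 and 1.803 on the log2 scale. They are intronic by the file's annotation and lie downstream of the Hoxa3 peak on the minus strand, the strand of Hoxa3. Whether they belong to Hoxa3 was not tested. Over the 16 merged peaks of the cluster limma called 11 lower and 3 higher in mTEC-I, so this cluster held both directions.

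The Hoxb cluster had 14 of 18 peaks called lower in mTEC-I and 0 higher by limma, with 2 among the 294. The peak in an exon of Hoxb4, chr11:96178905-96182080, had 54.9 and 35.2 in the mTEC-I libraries, 144 and 149 in the mTEC-II pair, 245 and 248 in the mTEC-III pair, and 188 and 173 in the mTEC-IV pair. The start-site peak of Hoxb7, chr11:96146724-96148636, had 20.1 and 17.6 in the mTEC-I libraries, 73.6 and 67.01 in the mTEC-II pair, 80.8 and 93.6 in the mTEC-III pair, and 74.8 and 86.6 in the mTEC-IV pair. The Hoxd cluster had 11 of 15 peaks called lower and 0 higher by limma, with 4 among the 294. Of these, 3 lay nearest to Mir10b, the gene of miR-10b, which is transcribed within the cluster, and RefSeq places the file's annotated transcripts of these 3 peaks in Hoxd3 and Hoxd4. They had 47.2 and 35.2 in the mTEC-I libraries, 199.8 and 197 in the mTEC-II pair, 154 and 174 in the mTEC-III pair, and 106 and 154 in the mTEC-IV pair at chr2:74572862-74578673, 10.1 and 23.5 in the mTEC-I libraries, 106 and 97.7 in the mTEC-II pair, 80.8 and 118 in the mTEC-III pair, and 105 and 99.2 in the mTEC-IV pair at chr2:74570352-74572340, and 9.29 and 26.4 in the mTEC-I libraries, 58.7 and 61.1 in the mTEC-II pair, 76.3 and 83.02 in the mTEC-III pair, and 82.5 and 87.8 in the mTEC-IV pair at chr2:74564453-74566529. The other member, nearest to LOC102634401, lay in the same stretch of 24554 bases.

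**Figure D2:**
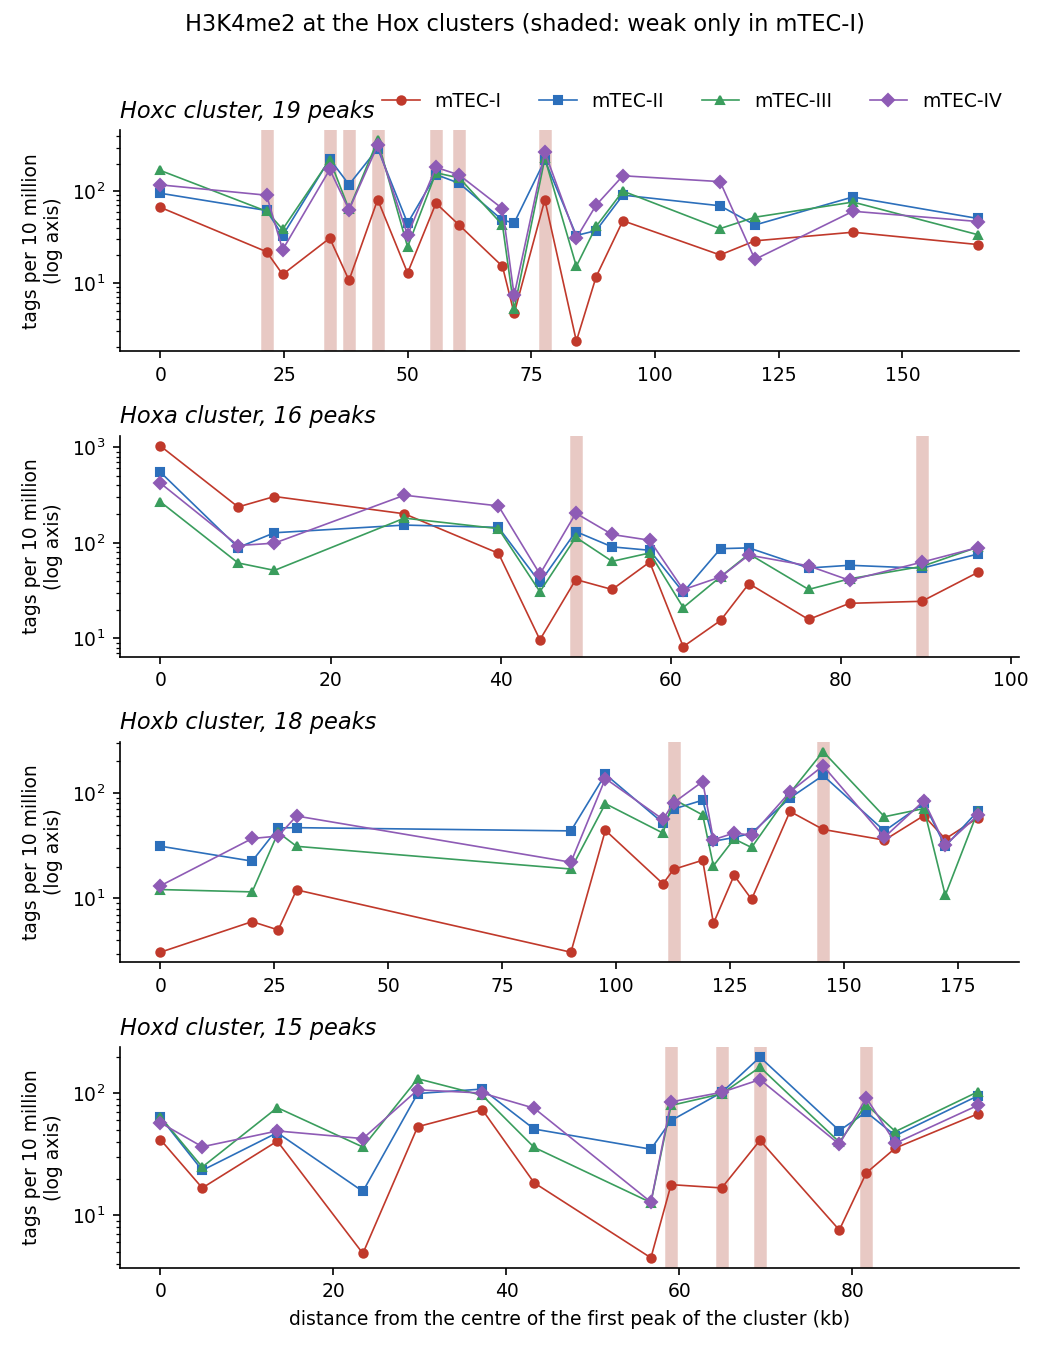
Mean H3K4me2 signal (vertical axis, tags per 10000000, log scale) of the 4 populations at every merged peak of the Hoxc, Hoxa, Hoxb and Hoxd clusters, by distance along the chromosome from the first peak (horizontal axis, kb); shaded positions are peaks weak only in mTEC-I. mTEC-I (red) lies lowest over most of the Hoxc, Hoxb and Hoxd peaks and highest at the first 3 Hoxa peaks, which are Hoxa2 and the 2 Hoxaas2 peaks.

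Outside the Hox clusters, 30 of the 294 peaks lay nearest to 24 genes of transcription factors that pattern tissues. This group was drawn from the 294 alone after they had been seen, so no share over all peaks can be set beside the count. The median signal of the 30 was 37.6 in mTEC-I, 112 in mTEC-II, 93.3 in mTEC-III and 110.3 in mTEC-IV. The strongest of all 294 peaks lay in an intron of Tfap2b, an AP-2 factor of neural crest and kidney, at chr1:19195294-19205127, with 116 and 147 in the mTEC-I libraries, 445 and 414 in the mTEC-II pair, 493 and 510.5 in the mTEC-III pair, and 492 and 492 in the mTEC-IV pair. Hmx2, a homeobox gene of the inner ear and hypothalamus, had 86.7 and 135 in the mTEC-I libraries, 318 and 319.5 in the mTEC-II pair, 247 and 281 in the mTEC-III pair, and 418 and 422 in the mTEC-IV pair at an exon (chr7:138696125-138702329). At both peaks the 6 libraries of mTEC-II, mTEC-III and mTEC-IV were well above both mTEC-I libraries.

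Sim1 and Pax6 carried 3 such peaks each. At Sim1, a regulator of the hypothalamus, the strongest peak lay just upstream of the start (chr10:50612308-50616512) with 68.1 and 64.6 in the mTEC-I libraries, 189 and 182 in the mTEC-II pair, 159 and 212 in the mTEC-III pair, and 234 and 249.7 in the mTEC-IV pair. The intronic peak chr10:50621452-50624026 had 5.42 and 11.8 in the mTEC-I libraries, 84.3 and 87.4 in the mTEC-II pair, 68.1 and 61.2 in the mTEC-III pair, and 94.6 and 105 in the mTEC-IV pair, the larger difference in ratio. A further one, chr10:50629783-50631600, had 23.99 and 11.8 in the mTEC-I libraries, 73.3 and 69.2 in the mTEC-II pair, 98.4 and 69.5 in the mTEC-III pair, and 68.2 and 97.4 in the mTEC-IV pair. None of the 7 Sim1 peaks was higher in mTEC-I and all 7 were called lower, including the non-member peak 132.5 kb upstream at 15.9 in mTEC-I, 96.98 in mTEC-II, 43.7 in mTEC-III and 189.8 in mTEC-IV. At Pax6, the eye and pancreas regulator, the peak at the start site (chr2:105507224-105510564) had 60.4 and 58.8 in the mTEC-I libraries, 126 and 133 in the mTEC-II pair, 123 and 117 in the mTEC-III pair, and 154 and 148 in the mTEC-IV pair, and a second at another start (chr2:105521489-105524114) had 27.9 and 23.5 in the mTEC-I libraries, 74.6 and 75.2 in the mTEC-II pair, 57.4 and 58.3 in the mTEC-III pair, and 80.8 and 118 in the mTEC-IV pair. The fourth Pax6 peak, which is not a member, stood at 184 in mTEC-I, 269 in mTEC-II, 279.8 in mTEC-III and 297 in mTEC-IV (-0.62 ± 0.10 on the log2 scale, SE; limma, adjusted p = 0.000493). The difference there was in the same direction and smaller.

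Sox2, a regulator of stem cells and foregut epithelium, had 104 and 82.2 in the mTEC-I libraries, 190.4 and 193 in the mTEC-II pair, 220.2 and 241 in the mTEC-III pair, and 196 and 212 in the mTEC-IV pair over its first exon (chr3:34546936-34551202). Its promoter is among those printed above. Fezf2, which drives tissue antigens in mTEC, had its member peak 60.5 kb upstream of the start, at chr14:13235700-13242126 in an intron of Cadps, with 74.3 and 91.1 in the mTEC-I libraries, 175 and 198 in the mTEC-II pair, 285 and 328 in the mTEC-III pair, and 224 and 186 in the mTEC-IV pair. The start-site peak of Fezf2 did not differ detectably, at 739 in mTEC-I, 720.1 in mTEC-II, 848 in mTEC-III and 629.6 in mTEC-IV (0.02 ± 0.05 on the log2 scale, SE; limma, adjusted p = 0.762). Between them, at 34.9 kb upstream, the signal was 220.2 in mTEC-I, 685 in mTEC-II, 456 in mTEC-III and 259.7 in mTEC-IV (-0.99 ± 0.11 on the log2 scale, SE; limma, adjusted p = 5.41e-05), and mTEC-IV there was close to mTEC-I. A separate list of 51 homeobox, SOX, bHLH and zinc finger patterning genes, 46 of them with peaks, held 8 of the 294 among 139 peaks (5.76%). Of its other 131 peaks, 57 were called lower and 18 higher by limma, against 23.1% and 14.7% of all tested peaks. The median difference of the 131 was -0.39 on the log2 scale.

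Among regulators of gut and liver, the list of 23 genes had 40 peaks near 18 genes, of which 3 (7.5%) were among the 294. Among them were Cdx1, an intestinal homeobox gene, and Foxa1, a forkhead factor of endoderm. Cdx1 had 32.5 and 52.9 in the mTEC-I libraries, 291 and 298 in the mTEC-II pair, 176 and 234 in the mTEC-III pair, and 331 and 351 in the mTEC-IV pair in an intron (chr18:61191682-61197664). Foxa1 had 78.9 and 82.2 in the mTEC-I libraries, 188 and 171 in the mTEC-II pair, 233 and 205 in the mTEC-III pair, and 227 and 211 in the mTEC-IV pair at chr12:58638037-58642005, 7.1 kb from its start. The mTEC-I libraries were the lowest at both, and mTEC-III had less than mTEC-II and mTEC-IV at Cdx1. The 37 other peaks of the list had a median of -0.87 on the log2 scale. Of these 37, limma called 22 lower and 2 higher and left 13 not called, against 23.1% lower and 14.7% higher over all tested peaks.

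Further peaks lay around both genes. At Foxa1 the start-site peak had 306 and 288 in the mTEC-I libraries, 515 and 512 in the mTEC-II pair, 512 and 558 in the mTEC-III pair, and 559 and 599.8 in the mTEC-IV pair (-0.87 ± 0.07 on the log2 scale, SE; limma, adjusted p = 4.86e-06). At Cdx1 the peak 10.5 kb into the gene had 20.9 and 23.5 in the mTEC-I libraries, 72.02 and 67.4 in the mTEC-II pair, 46.05 and 37.1 in the mTEC-III pair, and 50.03 and 50.8 in the mTEC-IV pair (-1.21 ± 0.20 on the log2 scale, SE; limma, adjusted p = 0.00064). Both of these non-member peaks were called lower in mTEC-I.

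Further gut and liver genes were present, in a group drawn up after the peaks had been seen. Together with the 3 regulators of the list it covers 10 genes and 10 peaks, with a median of 28.7 in mTEC-I, 146 in mTEC-II, 200.1 in mTEC-III and 211 in mTEC-IV. Apobec1, which edits the Apob mRNA in the intestine, had 23.2 and 29.4 in the mTEC-I libraries, 171 and 149 in the mTEC-II pair, 192 and 236 in the mTEC-III pair, and 205 and 226 in the mTEC-IV pair at chr6:122538091-122542699. Its start-site peak, which is not a member, had 368 and 338 in the mTEC-I libraries, 382 and 347 in the mTEC-II pair, 439.7 and 469 in the mTEC-III pair, and 327 and 319 in the mTEC-IV pair (-0.10 ± 0.07 on the log2 scale, SE; limma, adjusted p = 0.334), no detectable difference. Anks4b, a protein of the intestinal brush border, had 13.9 and 29.4 in the mTEC-I libraries, 112 and 121 in the mTEC-II pair, 134 and 155 in the mTEC-III pair, and 163 and 154 in the mTEC-IV pair at chr7:127317419-127321152. At both members mTEC-III and mTEC-IV were close to each other and above mTEC-II. Gcg, the glucagon precursor gene, had its nearest peak 23.6 kb away, at chr2:62295913-62300209, with 37.1 and 55.8 in the mTEC-I libraries, 220.3 and 209 in the mTEC-II pair, 213 and 254 in the mTEC-III pair, and 222 and 229 in the mTEC-IV pair. Gpa33, an antigen of the intestinal surface, whose CpG-poor promoter is printed above, had 20.1 and 11.8 in the mTEC-I libraries, 79.5 and 67.8 in the mTEC-II pair, 114 and 101 in the mTEC-III pair, and 144 and 147 in the mTEC-IV pair at chr1:168060078-168062298. Mir194-2, a miRNA gene of liver and intestine whose mature strand has the seed GUAACAG, had 4.64 and 5.88 in the mTEC-I libraries, 56.5 and 45.9 in the mTEC-II pair, 51.7 and 79.5 in the mTEC-III pair, and 68.2 and 60.3 in the mTEC-IV pair at chr19:6263262-6265670. Both mTEC-I values there correspond to 3 tags in replicate 1 and 1 tag in replicate 2, so the level is at the limit of counting in both.

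The RNA-binding protein genes Lin28b, Igf2bp1 and Igf2bp3 are expressed in fetal tissues, and Lin28b blocks the maturation of let-7 miRNAs. All 3 had a peak at the start site among the 294. Igf2bp3 had 101 and 82.2 in the mTEC-I libraries, 218 and 228 in the mTEC-II pair, 210.1 and 219.6 in the mTEC-III pair, and 204 and 203 in the mTEC-IV pair at chr6:49163213-49166846. Igf2bp1 had 44.1 and 82.2 in the mTEC-I libraries, 212 and 195 in the mTEC-II pair, 169 and 146 in the mTEC-III pair, and 129.8 and 124 in the mTEC-IV pair at chr11:95865380-95869573, a gradient among the 3 populations with mTEC-II highest. Lin28b had 37.1 and 11.8 in the mTEC-I libraries, 169.7 and 157 in the mTEC-II pair, 164 and 175 in the mTEC-III pair, and 126 and 140.4 in the mTEC-IV pair at chr10:45187995-45190824, where the lowest of the 3 was 5.45 times mTEC-I. The Lin28b peak 16.1 kb upstream did not differ detectably, at 185 in mTEC-I, 191 in mTEC-II, 213 in mTEC-III and 199 in mTEC-IV (-0.12 ± 0.09 on the log2 scale, SE; limma, adjusted p = 0.32).

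**Figure D3:**
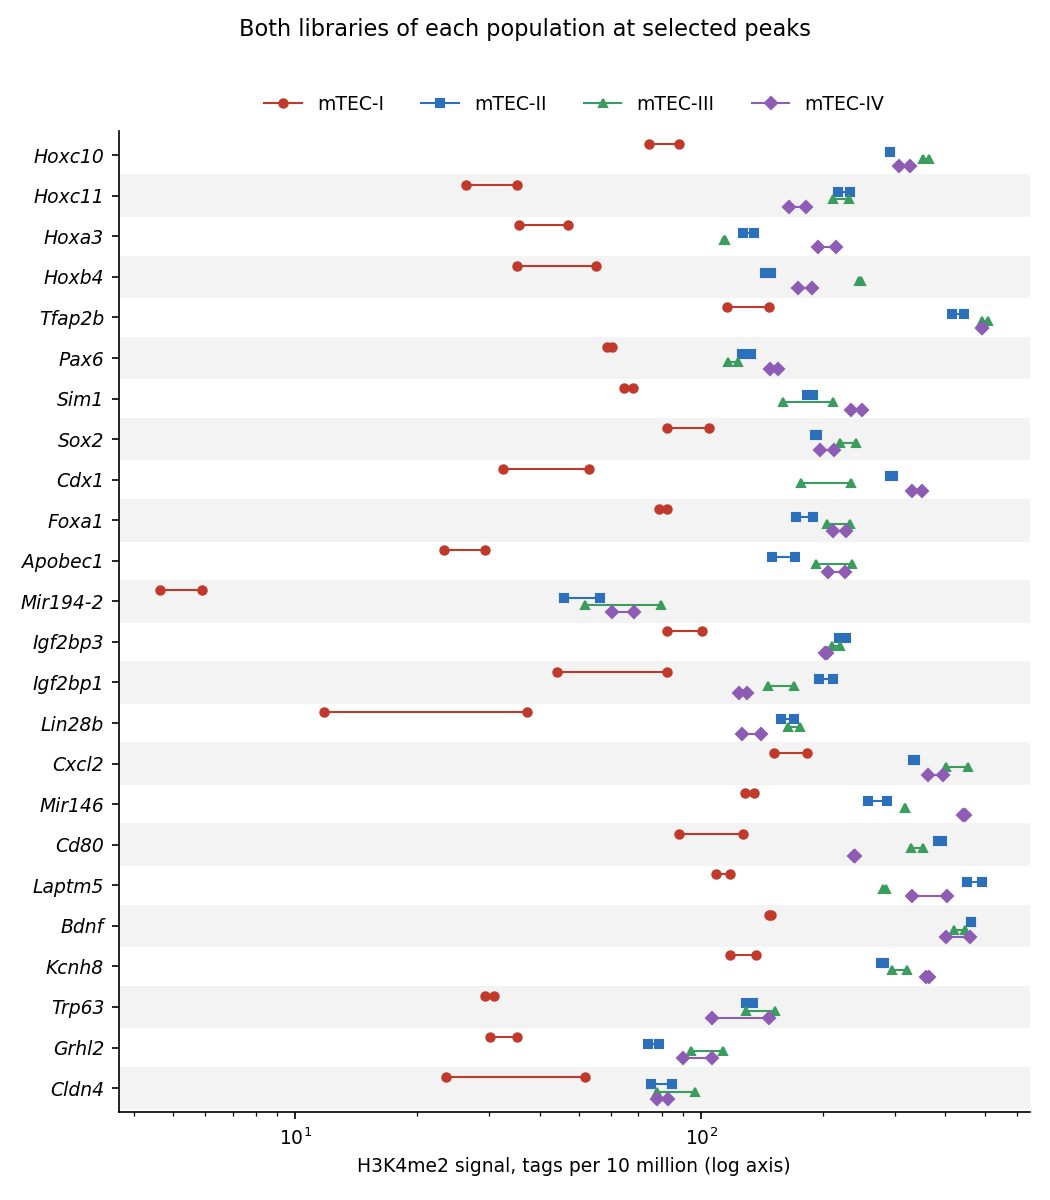
H3K4me2 signal (horizontal axis, tags per 10000000, log scale) in both libraries of each population, joined by a line, at the strongest peak weak only in mTEC-I of 24 genes (vertical axis). In every row both mTEC-I points (red) lie left of the 6 others; at Lin28b they lie furthest apart, at 37.1 and 11.8.

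Members were also found at epithelial and junction genes. Of 92 peaks of the list of epithelial differentiation factors, 3 (3.26%) were among the 294, at Trp63 and Grhl2, against 0.998% of all peaks. Of its other 89 peaks, limma called 35 lower and 9 higher, against 23.1% and 14.7% of all tested peaks. At Trp63, the p63 factor of stratified and thymic epithelium, the peaks 49.6 and 43.3 kb upstream, both intronic by the file's annotation, had 30.9 and 29.4 in the mTEC-I libraries, 135 and 129 in the mTEC-II pair, 129 and 152 in the mTEC-III pair, and 107 and 147 in the mTEC-IV pair (chr16:25750712-25754018) and 30.9 and 17.6 in the mTEC-I libraries, 50.3 and 50.4 in the mTEC-II pair, 95.9 and 84.2 in the mTEC-III pair, and 58.3 and 46.6 in the mTEC-IV pair (chr16:25757427-25759963). A peak 2.8 kb downstream of the same start had more signal in mTEC-I: 526 and 519.9 in the mTEC-I libraries, 349.7 and 348 in the mTEC-II pair, 430.2 and 447 in the mTEC-III pair, and 296 and 312 in the mTEC-IV pair (0.54 ± 0.07 on the log2 scale, SE; limma, adjusted p = 9.21e-05). The Trp63 start-site peak had 58.6 in mTEC-I, 58.5 in mTEC-II, 50.7 in mTEC-III and 39.4 in mTEC-IV (0.25 ± 0.18 on the log2 scale, SE; limma, adjusted p = 0.303), no detectable difference. Of the 10 Trp63 peaks, 2 were called lower, both of them members, and 1 higher. Trp63 also accounts for both members in the list of basal and junctional mTEC genes. The 39 other peaks of that list had 3 called lower and 15 higher, against 23.1% and 14.7% of all tested peaks.

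Grhl2, a regulator of epithelial junctions, had 30.2 and 35.2 in the mTEC-I libraries, 78.8 and 74.05 in the mTEC-II pair, 94.6 and 113 in the mTEC-III pair, and 90.2 and 106 in the mTEC-IV pair at an intronic peak 85.8 kb into the gene (chr15:37246893-37250304). Its start-site peak had 455 in mTEC-I, 396 in mTEC-II, 470.4 in mTEC-III and 419.9 in mTEC-IV (0.09 ± 0.07 on the log2 scale, SE; limma, adjusted p = 0.32), no detectable difference. Cldn4, a tight-junction claudin found in mTEC, had 51.8 and 23.5 in the mTEC-I libraries, 85.00 and 75.2 in the mTEC-II pair, 96.5 and 77.7 in the mTEC-III pair, and 78.1 and 83.04 in the mTEC-IV pair at 4.5 kb upstream (chr5:135426422-135428227). Over the exon of Cldn4 the signal was 96.2 in mTEC-I, 182 in mTEC-II, 186 in mTEC-III and 227 in mTEC-IV (-1.03 ± 0.11 on the log2 scale, SE; limma, adjusted p = 4.16e-05), in the same direction. Cldn4 was the 1 member among 63 peaks (1.59%) of the list of tight junction and polarity genes. Of its other 62 peaks, limma called 20 lower and 7 higher, against 23.1% and 14.7% of all tested peaks.

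Genes of antigen presentation and inflammation were represented by single peaks. Cd80, a ligand for the co-stimulatory receptor CD28 on T cells, had 127 and 88.1 in the mTEC-I libraries, 383 and 393 in the mTEC-II pair, 329 and 352 in the mTEC-III pair, and 239.7 and 238 in the mTEC-IV pair in intron sequence near its start (chr16:38456927-38464221). Further into the gene, 2 peaks differed in the other direction. The peak 17.7 kb into the gene had 153 and 170.4 in the mTEC-I libraries, 60.7 and 57.8 in the mTEC-II pair, 68.8 and 60.1 in the mTEC-III pair, and 172 and 188 in the mTEC-IV pair (0.87 ± 0.12 on the log2 scale, SE; limma, adjusted p = 0.000307), and the peak at 25.2 kb had 91.3 and 132 in the mTEC-I libraries, 41.5 and 38.5 in the mTEC-II pair, 32.2 and 40.04 in the mTEC-III pair, and 103 and 114 in the mTEC-IV pair (1.02 ± 0.18 on the log2 scale, SE; limma, adjusted p = 0.00127). At both, mTEC-I and mTEC-IV were alike and above mTEC-II and mTEC-III, so 1 gene held a peak lower and 2 peaks higher in mTEC-I.

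Cxcl2, a chemokine that attracts neutrophils, was the fourth strongest of the 294 and had the ratio nearest the limit, with 152 and 182 in the mTEC-I libraries, 333 and 337 in the mTEC-II pair, 401 and 454 in the mTEC-III pair, and 363 and 394 in the mTEC-IV pair upstream of its start (chr5:91327762-91335930). Laptm5, a lysosomal membrane protein of blood cells, had 118 and 109 in the mTEC-I libraries, 492 and 452 in the mTEC-II pair, 281 and 285 in the mTEC-III pair, and 331 and 404 in the mTEC-IV pair (chr4:130467003-130479123), highest in mTEC-II. The other merged peak of Laptm5 was called higher in mTEC-I by limma. Mir146 had 128 and 135 in the mTEC-I libraries, 258 and 287 in the mTEC-II pair, 319 and 319 in the mTEC-III pair, and 448 and 443 in the mTEC-IV pair at 10.5 kb upstream (chr11:43194712-43202291), highest in mTEC-IV. miR-146a, whose mature strand is printed above, is known to dampen signalling to NF-kappaB. The list of 26 genes of NF-kappaB and TNF receptors held 0 of the 294 among 66 peaks, and of these limma called 17 lower and 14 higher, against 23.1% and 14.7% of all tested peaks. With 0.998% of all peaks among the 294, a list of this size is too small to set 0 apart from the background. A group of 18 immune and inflammatory genes was drawn from the 294 alone after they had been seen, without a share over all peaks. Its 18 peaks had a median of 34.4 in mTEC-I, 133 in mTEC-II, 124 in mTEC-III and 131 in mTEC-IV.

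Neuronal genes made up 31 of the 294 peaks and 29 genes, again in a group drawn from the 294 alone after they had been seen. No share over all peaks can be set beside that count. Of the 31, 17 had their centre within 1 kb of a start site. Their median signal was 28.9 in mTEC-I, 96.8 in mTEC-II, 85.1 in mTEC-III and 101 in mTEC-IV. Bdnf, a neurotrophin, had 149 and 147 in the mTEC-I libraries, 464 and 464 in the mTEC-II pair, 421 and 447 in the mTEC-III pair, and 402 and 459 in the mTEC-IV pair at a start site (chr2:109512915-109519735). A second Bdnf start, which is not a member, had 167 in mTEC-I, 288 in mTEC-II, 299 in mTEC-III and 367 in mTEC-IV (-0.92 ± 0.09 on the log2 scale, SE; limma, adjusted p = 1.67e-05). Both were lower in mTEC-I, and the member by more. Kcnh8, a potassium channel gene, had 136 and 118 in the mTEC-I libraries, 277 and 282 in the mTEC-II pair, 296 and 321 in the mTEC-III pair, and 358 and 365 in the mTEC-IV pair (chr17:52740144-52744634). Fgf14, which binds sodium channels, had 2 members near separate starts, with 92.9 and 88.1 in the mTEC-I libraries, 202 and 215 in the mTEC-II pair, 217 and 236 in the mTEC-III pair, and 219.9 and 271 in the mTEC-IV pair (chr14:125073630-125076954) and 63.5 and 88.1 in the mTEC-I libraries, 193 and 173 in the mTEC-II pair, 171 and 197 in the mTEC-III pair, and 235 and 265 in the mTEC-IV pair (chr14:124588237-124593205).

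Of the miRNA genes, Mir9-2 lay in a stretch of 19044 bases with 3 of the 294 peaks, of which 1 is nearest to the non-coding gene C130071C03Rik. miR-9 is known for its role in neural development. The C130071C03Rik peak had 162 and 147 in the mTEC-I libraries, 343 and 348 in the mTEC-II pair, 346 and 420.4 in the mTEC-III pair, and 468 and 536 in the mTEC-IV pair (chr13:83866160-83873970), ranked just after Tfap2b and Bdnf by level. The Mir9-2 peak chr13:83877376-83880822 had 40.2 and 106 in the mTEC-I libraries, 176 and 152 in the mTEC-II pair, 196 and 232 in the mTEC-III pair, and 227 and 253 in the mTEC-IV pair, and there the mTEC-I libraries differed more from each other than at the first. The Mir148a peak lay 91.1 kb away (chr6:51127450-51130225) and had 20.1 and 23.5 in the mTEC-I libraries, 103 and 110.0 in the mTEC-II pair, 88.95 and 105 in the mTEC-III pair, and 75.3 and 65.7 in the mTEC-IV pair.

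Other strong members were Sh3tc2, a gene of Schwann cells, with 155 and 132 in the mTEC-I libraries, 335 and 323 in the mTEC-II pair, 395 and 386 in the mTEC-III pair, and 289.8 and 317 in the mTEC-IV pair in an intron (chr18:62110523-62116979), and a peak 834.9 kb from its nearest annotated start, that of Nudt12, with 53.4 and 73.4 in the mTEC-I libraries, 400.3 and 392.4 in the mTEC-II pair, 261 and 349 in the mTEC-III pair, and 314 and 307 in the mTEC-IV pair (chr17:59983450-59991931). At such a distance the nearest gene is no more than a label. The Nudt12 peak had a ratio of 4.81, the highest among the 10 strongest members.

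The largest ratios were found at weaker peaks, where mTEC-I is close to its counting limit, so ratios were ranked with mTEC-I at no less than 11.1, the mean of the limits of its 2 libraries. Bend4, a BEN-domain gene, ranked first at 9.41, with 10.1 and 11.8 in the mTEC-I libraries, 138 and 133 in the mTEC-II pair, 97.8 and 112 in the mTEC-III pair, and 174 and 174 in the mTEC-IV pair (chr5:67790159-67793497). Xkr9 followed at 9.33, with 8.51 and 17.6 in the mTEC-I libraries, 116 and 127 in the mTEC-II pair, 129 and 133 in the mTEC-III pair, and 140.2 and 131 in the mTEC-IV pair near its start (chr1:13657988-13661043). Next was Gxylt1, an enzyme that adds xylose to sugars on Notch, at 7.29, with 18.6 and 14.7 in the mTEC-I libraries, 125 and 118 in the mTEC-II pair, 109 and 135 in the mTEC-III pair, and 161 and 192 in the mTEC-IV pair at a peak 248 kb from the start (chr15:92855268-92858970). The ranks from the fourth to the tenth, between 7.08 and 6.14, went to 3300002P13Rik, 1700024B18Rik, Klhl5, Gramd3, Syndig1, Soga3 and 1810064F22Rik. Without that limit the largest ratio was 13.7, at Ttbk1, with 7.74 and 0 in the mTEC-I libraries, 55.1 and 50.7 in the mTEC-II pair, 51.7 and 55.9 in the mTEC-III pair, and 62.7 and 79.5 in the mTEC-IV pair, where mTEC-I replicate 2 had no tag.

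Rassf3 and Fam122a also had 3 members each. At Rassf3, of the Ras-association family, the members had 72.7 and 61.7 in the mTEC-I libraries, 142 and 161 in the mTEC-II pair, 141 and 136 in the mTEC-III pair, and 153 and 146 in the mTEC-IV pair (chr10:120869527-120874185), 24.8 and 11.8 in the mTEC-I libraries, 99.9 and 105 in the mTEC-II pair, 71.9 and 65.4 in the mTEC-III pair, and 112 and 100.4 in the mTEC-IV pair (chr10:120882261-120885277) and 14.7 and 17.6 in the mTEC-I libraries, 77.9 and 60.4 in the mTEC-II pair, 71.9 and 73.6 in the mTEC-III pair, and 95.7 and 104 in the mTEC-IV pair (chr10:120946308-120948046). Its start-site peak, at 318 in mTEC-I, 316 in mTEC-II, 333 in mTEC-III and 312 in mTEC-IV, did not differ detectably (-0.02 ± 0.09 on the log2 scale, SE; limma, adjusted p = 0.911), while 9 of its 11 peaks were called lower. The 3 members labelled Fam122a lie in introns of Pip5k1b by the file's annotated transcript, with 19.4 and 44.1 in the mTEC-I libraries, 263 and 247 in the mTEC-II pair, 149 and 157 in the mTEC-III pair, and 142 and 169 in the mTEC-IV pair at the strongest (chr19:24509585-24515564). The start-site peak of Fam122a, at 241 in mTEC-I, 227 in mTEC-II, 241 in mTEC-III and 266 in mTEC-IV, did not differ detectably (-0.02 ± 0.08 on the log2 scale, SE; limma, adjusted p = 0.89). In 255 of the 272 genes there was 1 member, in 12 there were 2 and in 5 there were 3. In 51 genes every merged peak was a member, and 48 of those had a single peak. In 20 groups, members lay within 50 kb of each other, and these groups held 51 members (17.3%).

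**Figure D4:**
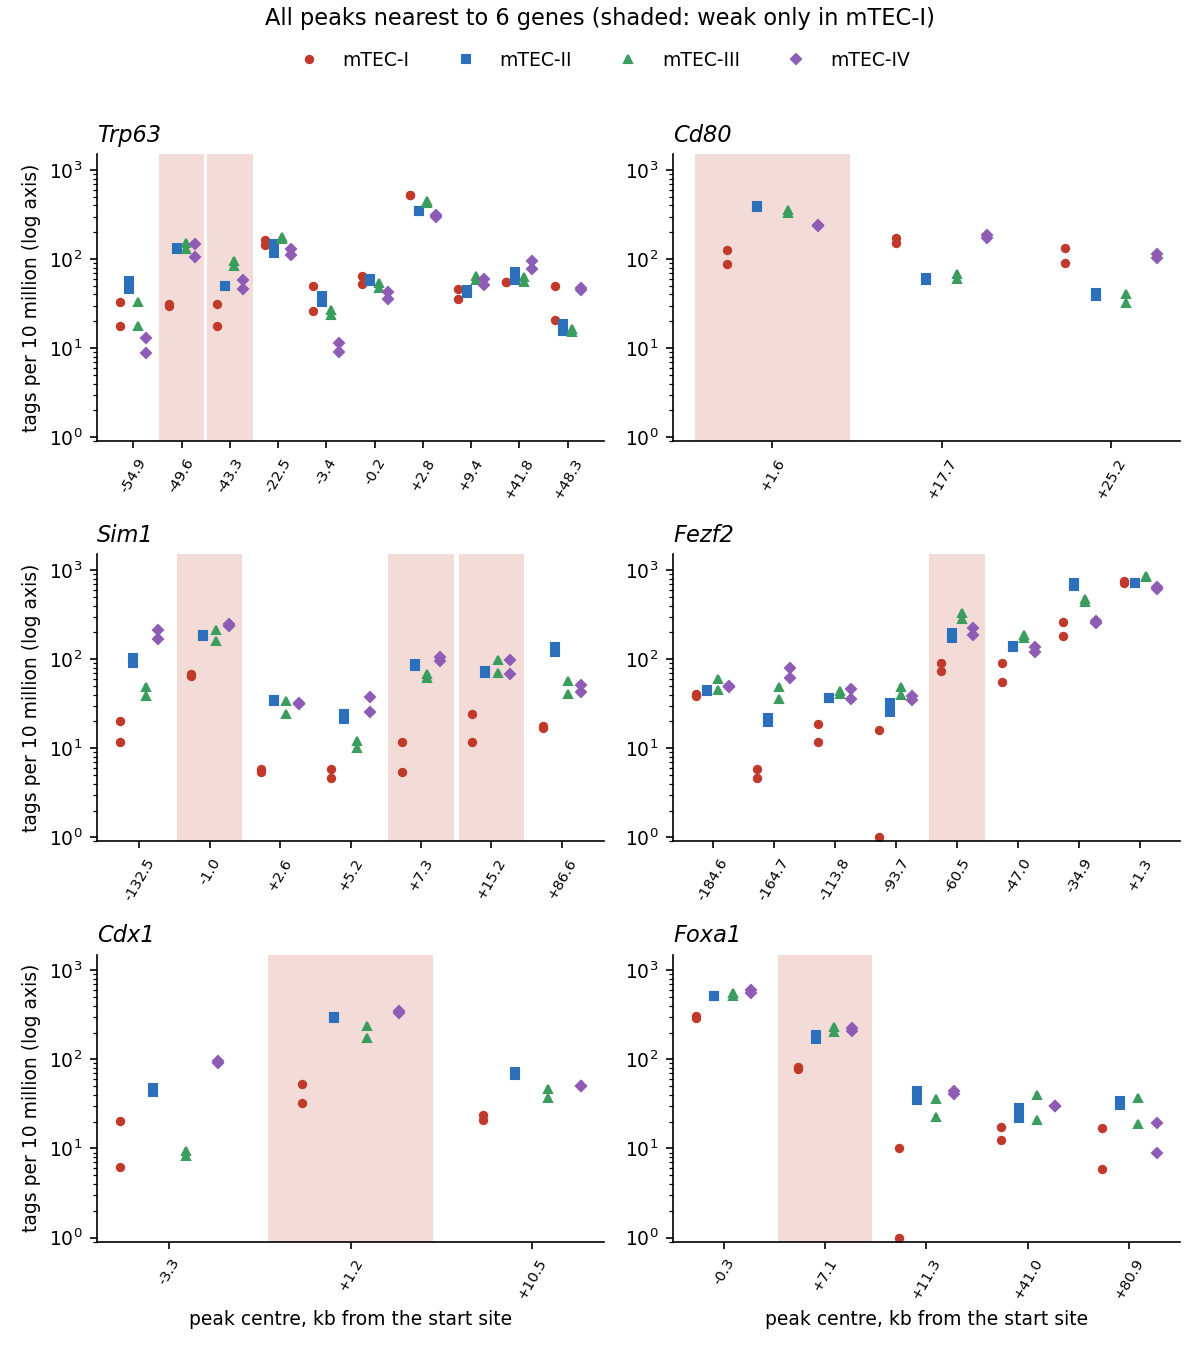
H3K4me2 signal (vertical axis, tags per 10000000, log scale, with values of 0 drawn at 1) in each library at every merged peak nearest to Trp63, Cd80, Sim1, Fezf2, Cdx1 and Foxa1, ordered by distance of the peak's centre from the start site (horizontal axis, kb, not to scale); shaded peaks are weak only in mTEC-I. The other peaks of Sim1 were lower in mTEC-I too, while 2 Cd80 peaks and 1 Trp63 peak were higher.

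The other merged peaks of the 272 genes were not chosen by the limits, although by construction they fail at least 1 of them. There were 713 such tested peaks near 221 genes. limma called 295 of them lower in mTEC-I (41.4%) and 51 higher (7.15%), against 23.1% and 14.7% of all tested peaks, and 367 were not called. DESeq2 called 165 of them lower (23.1%), against 11.3% of all tested peaks. Their median difference was -0.38 on the log2 scale, against -0.0036 over all tested peaks. Of the 117 that lay at start sites, 24 (20.5%) were called lower, against 8.37% of all start-site peaks. Start sites held 117 of the 713 but 38.4% of all peaks, and peaks there were less often called lower. The shares of 41.4% and 23.1% are therefore not matched for place. Neighbouring peaks are not independent of each other, and these shares were not tested.

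The 294 peaks lay mostly away from start sites, a property the limits did not use. The centre was within 1 kb of an annotated start at 71 of the 294 (24.1%, exact 95% interval 19.4% to 29.5%), against 64.8% of the other even peaks (63.99% to 65.5%) and 38.4% of all peaks. It was over 10 kb away at 43.9% (38.1% to 49.8%), against 17.4% of the other even peaks and 41.7% of all peaks. By the file's annotation, 54.4% were intronic, against 41.9% of the other even peaks and 45.6% of all peaks. Intergenic peaks made up 26.9%, against 14.4% and 26.5%, and peaks annotated as promoter 8.50%, against 30.7% and 18.2%. The shares over 10 kb away and intergenic were thus near those of all peaks. The share at start sites was lower in each band of level: 19.8% against 40.03% at mean signals of 50 to 100, 32.6% against 77.0% at 100 to 200, and 22.5% against 62.6% above 200. These intervals treat peaks as independent, which neighbours are not.

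**Figure D5:**
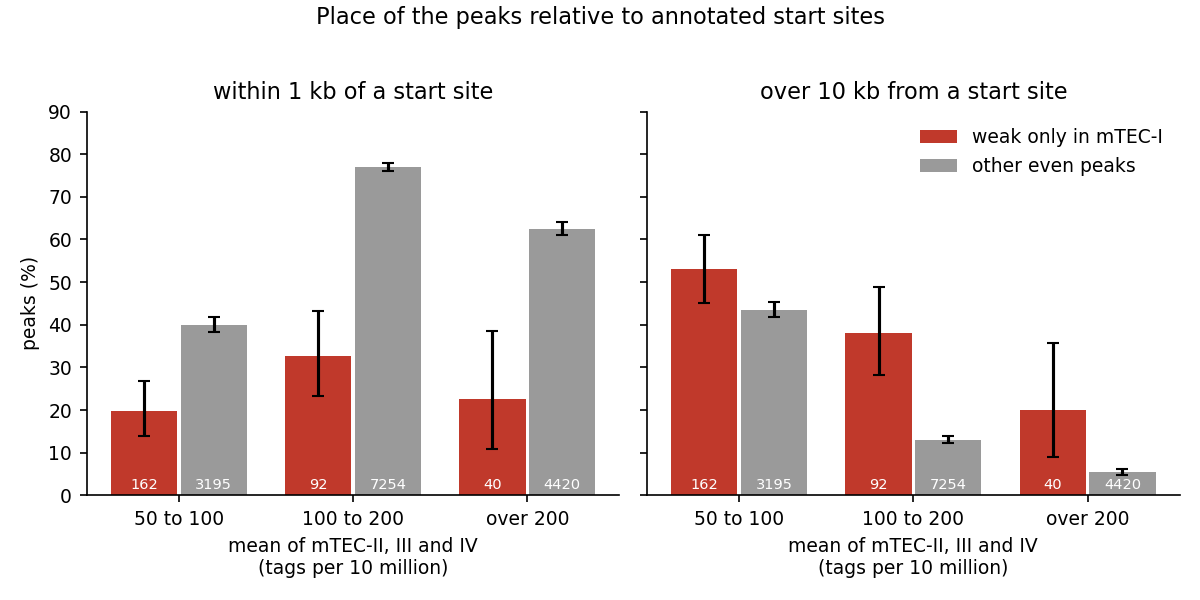
Share of peaks (vertical axis, %) with their centre within 1 kb (left) or over 10 kb (right) of an annotated start site, by mean signal of mTEC-II, mTEC-III and mTEC-IV (horizontal axis, tags per 10000000); red bars are peaks weak only in mTEC-I, grey bars other even peaks, error bars exact 95% intervals and white figures the number of peaks. In each band the red bar is lower than the grey one within 1 kb and higher beyond 10 kb, and the intervals overlap only beyond 10 kb at 50 to 100.

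Level and sequence class also differed from other even peaks. The share of even peaks that met the limits was 5.99% at mean signals of 50 to 75, 4.07% at 75 to 100, 1.68% at 100 to 150, 0.746% at 150 to 200, 0.826% at 200 to 300 and 1.05% above 300. The median width was 2602 bases, against 2965 in the other even peaks and 2141 in all peaks. The centre fell in an annotated repeat at 48 of the 294 (16.3%), against 6.70% of the other even peaks and 13.4% of all peaks. It fell in a simple repeat at 6.80%, against 2.21% and 4.03%, and in a CpG island with no other label at 5.10%, against 11.98% and 6.92%. The shares of repeats thus stood above those of other even peaks and nearer to those of all peaks.

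The replicates allow a reading that the choice did not use. With the limits applied to the replicate 1 libraries alone, 242 peaks were chosen, and in the replicate 2 libraries mTEC-I was below all 3 other populations at 241 of them (99.6%, against 28.7% of even peaks). Their median difference in replicate 2 was -1.72 on the log2 scale, and mTEC-I was at 0.5 or less of the lowest of the 3 at 183 (75.6%, against 2.71% of even peaks). With the limits applied to replicate 2, in which mTEC-I is the shallow library, 456 peaks were chosen. In replicate 1, 397 of these (87.1%, against 18.02% of even peaks) had mTEC-I below all 3, the median difference was -1.12, and 200 (43.9%, against 1.70%) stood at 0.5 or less. The 2 choices shared 160 peaks, 66.1% of those from replicate 1 and 35.1% of those from replicate 2. Both replicates had been used by the authors to define the merged peaks.

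Within the 294, mTEC-I replicate 1 had a median of 28.6, which is 18.5 tags, and replicate 2 a median of 23.5, which is 4 tags. Replicate 2 was above replicate 1 at 113 peaks and below it at 181. It stood at or below its counting limit of 17.6 at 71 peaks, 5 of them at 0, while replicate 1 stood at or below its limit of 4.64 at 1. At 211 peaks each mTEC-I library alone was at 0.5 or less of the lowest of the other 3.

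In the peak lists that the authors deposited for each population, 0 of the 294 overlapped a peak of mTEC-I by 1 base or more, 284 (96.6%) a peak of mTEC-II, 265 (90.1%) a peak of mTEC-III and 271 (92.2%) a peak of mTEC-IV. Of the other even peaks, 44.6% overlapped the mTEC-I list. For the lists of mTEC-II, mTEC-III and mTEC-IV their shares were 99.3%, 98.4% and 98.3%, each above that of the 294. The mTEC-I list is short, with 7034 peaks against 23947, 19320 and 22757 for mTEC-II, mTEC-III and mTEC-IV, and its lowest signal in the authors' deposited table is 143, against 33.4, 40.8 and 41.8. At 290 of the 294 the mTEC-I mean lay below that lowest signal, as it did at 39.7% of the other even peaks. The peaks of the 3 other lists that overlap the 294 had a median fold over control of 16.02 in mTEC-II, 15.8 in mTEC-III and 15.8 in mTEC-IV, by the authors' deposited values. For the other even peaks these medians were 20.27, 20.96 and 20.44.

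Lists of genes of other cells were read for the whole list. Over all tested peaks, limma called 23.1% lower in mTEC-I and 14.7% higher. The summed signal at fibroblast genes was 1265 and 1501 in mTEC-I and between 536 and 898 elsewhere, with 7 of 11 peaks called higher in mTEC-I and 3 of the 12 genes, Col1a2, Col3a1 and Lum, without a peak. At genes of blood antigen-presenting cells it was 168 and 185 in mTEC-I, against 265 to 581, with 5 of 9 peaks called lower and Spi1 and Lyz2 among the genes without a peak. At endothelial genes it was 1060 and 999 in mTEC-I, against 1077 to 1866, with 11 of 22 peaks called lower and Tie1 without a peak. At thymocyte genes it was 1402 and 1137 in mTEC-I, against 1160 to 1499, and 10 of the 13 genes, including Cd3e, Cd4, Cd8a and Rag1, had no merged peak. These lists held 0 of the 294. Tuft cell genes, with 63 peaks, held 0 of the 294 as well, and their sum was 3761 and 3516 in mTEC-I, against 12827 and 13038 in mTEC-IV and 3306 to 3578 elsewhere. Cornified epithelium genes, with 59 peaks, held 0. With 0.998% of all peaks among the 294, each of these lists is too small to set 0 apart from the background. At tuft cell genes the limit on evenness also leaves out peaks strong in mTEC-IV alone. The lists for MHC and antigen presentation (37 peaks) and for Aire-stage mTEC (39 peaks) held 1 and 2, at Cd80 and at Cd80 and Fezf2. Of the 36 other peaks of the MHC list, limma called 3 lower and 14 higher in mTEC-I. Of the 37 others of the Aire-stage list, it called 14 lower and 8 higher. Whether other cells in the sorted populations have a part in the weak signal was not tested. In all, 30 of the 294 peaks lay nearest to genes of any of the 15 lists, 4.34% of their 692 peaks. Genes in several lists, such as Cd80, are counted once in these totals.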

How the data were processed

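H3K4me2 ChIP libraries of 4 sorted mTEC populations, 2 each, were analysed. The submitters' processing notes name bcl2fastq 2.15.0.4, Picard 1.108 and the mm9 build; no aligner is named in the sources used here. The authors deposited a merged peak table, made with HOMER per the file headers, with the signal of each library in tags per 10000000, and 1 peak list per population with each peak's signal, fold over control and p-value. The authors' fold and p-value were used only to describe lists. Population levels are means of 2 libraries. Peaks took the gene of the nearest start site, as deposited. limma 3.58.1 (R 4.3.3) was fitted to log2(value + 1) of 29469 peaks with at least 10 in at least 2 libraries, mTEC-I against the mean of the other 3, with Benjamini-Hochberg adjustment over all of them and a threshold of 0.05; it was tested on simulated data. The log2(value + 1) scale understates differences of low peaks. With the library totals of the header, signal was converted to tags in steps of 0.5 (tolerance 0.1 step), which served edgeR 4.0.16 and DESeq2 1.42.0 as alternatives. Genes were named by level, ratio, nearness to a limit, number of peaks or list. Members and lists were chosen with earlier results of these data known. Some genes of the lists are counted but not reported here by name.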

Additional observations from a re-analysis of the deposited data

How the results depend on the processing

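The number of peaks weak only in mTEC-I followed the limits: 661 with a minimum level of 25, 96 with 100, 123 at a ratio of at least 3, and 191 with the 3 others within 1.5-fold. From the replicate 2 libraries alone it was 456. It stayed between 268 and 422 without any 1 library, and between 258 and 299 with pooled tags, equal totals in peaks, RLE size factors or 5 added to each mean. The median difference of the members was -2.23 at a ratio of at least 3, and -1.71 to -1.65 without any 1 library. The limits chose the peaks anew in each setting, so this median is largely fixed by them and nothing is read from its narrow range. The share at start sites was 15.0% with a minimum of 25, and 22.5% to 24.5% without any 1 library. Peaks called lower in mTEC-I numbered 6814, 6073 with edgeR and 3327 with DESeq2, and 5296 to 8487 without any 1 library. For the other peaks of the member genes the counts were 295, 263 and 165, and 242 to 322. The share of those 713 peaks stayed above the background in each, at 36.9% against 20.6% with edgeR and 23.1% against 11.3% with DESeq2. That background was not matched for place relative to start sites. RLE scaling moved the median of all peaks by -0.013 on the log2 scale. With the replicate block, 6747 peaks and 290 of the other peaks were called. The replicate numbers gave no sign of pairing, with correlations of replicate differences from -0.013 to 0.016 between populations. With an overlap of at least 0.5 of the peak, 91.8%, 78.6% and 74.8% of the members overlapped the deposited lists of mTEC-II, mTEC-III and mTEC-IV. Depth limits mTEC-I most: at its replicate 2, levels of 17.6 and below cannot be told from 0. Peaks near the limits of the choice can change sides with a few tags.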
